A study of Arabidopsis thaliana with 9 samples.

Results

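Transcript levels of 10 phosphate starvation response genes were followed in Arabidopsis seedlings of 3 genotypes, among 29420 genes in the count table. The genes are PS2 (AT1G73010), PECP1 (AT1G17710), PAP14 (AT2G46880), PAP17 (AT3G17790), SPX1 (AT5G20150), SPX3 (AT2G45130), IPS1 (AT3G09922), PHT1;4 (AT2G38940), SQD2 (AT5G01220) and MGD3 (AT2G11810). They are known phosphate starvation genes and were chosen by their levels in these same libraries, PS2 and PAP14 being among the largest falls in hda9. Their differences between genotypes are therefore description: counts of calls are printed beside the share over all genes, and nothing is read from them. The groups are pwr, seedlings with the pwr-2 allele of POWERDRESS (PWR), a gene for a protein with SANT domains; hda9, seedlings with the hda9-1 allele of the histone deacetylase gene HDA9; and WT, unmutated seedlings. All are of the Col ecotype, and each has 3 biological replicates. Whole seedlings were 10 days old and had been grown on MS agar at 23 °C with 16 h of light and 8 h of dark, after 2 days of cold. No group had a low-phosphate treatment in the labels, so the levels are those of seedlings on standard medium. Each mutant is represented by 1 allele. The comparisons ask how transcript levels in seedlings with either mutation differ from those in WT seedlings, and from each other.

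The libraries held 8261697, 9398515 and 8955101 counts in pwr, 9417469, 9161717 and 6450661 in hda9, and 10184314, 11150773 and 8260650 in WT. Levels are given in CPM, counts relative to library sizes that were adjusted by TMM, and 3 counts correspond to 0.259 to 0.491 CPM. Replicate 3 of hda9 stood apart from the rest: it was the smallest library, and its counts differed from those of hda9 replicate 1 by a chi-square per degree of freedom of 4.79, against 1.60 to 3.09 for the other pairs of replicates. PWR, the gene mutated in pwr, had 48.7 ± 7.40 CPM in pwr and 140.5 ± 6.81 CPM in WT (SD, n = 3 each), and HDA9 had 7.03 ± 0.43 CPM in hda9 and 38.0 ± 1.41 CPM in WT. PWR was also higher in hda9 than in WT, with 191.0 ± 5.52 CPM (log2 fold change 0.44, edgeR adjusted p = 0.00146). HDA9 was slightly lower in pwr, with 32.6 ± 2.68 CPM (-0.23, adjusted p = 0.0326 with edgeR and 0.151 with DESeq2). In whole seedlings, fewer cells of a type and less RNA per cell cannot be told apart.

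Plants short of phosphate turn on a set of genes under the transcription factor PHR1 and its relatives, which bind a short DNA element called P1BS in the promoters of these genes. SPX proteins hold PHR1 back while phosphate is plentiful, and several SPX genes are themselves targets of PHR1. IPS1 is a noncoding RNA that sequesters the microRNA miR399 and so shields PHO2, a gene for an enzyme that marks phosphate transporters and exporters for breakdown. Other targets encode phosphatases, which free phosphate from organic compounds, transporters of the PHT1 family, and enzymes that replace membrane phospholipids with galactolipids and sulfolipids.

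The promoters are shown because the P1BS element is the sequence feature that these genes are known for. The genes were taken as known phosphate starvation genes, so a share above that of all genes is not a result about them. The element, GNATATNC, reads the same on both strands, and it was searched for as these letters in RefSeq's TAIR10.1 assembly. It was present in the 1000 bases before the annotated start of 7 of the 10 genes, against 20.1% of the 28931 genes of the table with a position and 48 of 92 other genes of the phosphate pathway (52.2%). In the 250 bases before the start, 3 of the 10 genes (PS2, PAP14 and SPX3) held it, against 5.44% of those 28931 genes. The 250 bases of PS2 and SPX3 are written out here 5′ to 3′ with the element in capitals, beside those of MGD3, which like PS2 was lower in every mutant library than in every WT library but did not hold these letters in 1000 bases.
PS2, chr1:27466349-27466598, minus strand: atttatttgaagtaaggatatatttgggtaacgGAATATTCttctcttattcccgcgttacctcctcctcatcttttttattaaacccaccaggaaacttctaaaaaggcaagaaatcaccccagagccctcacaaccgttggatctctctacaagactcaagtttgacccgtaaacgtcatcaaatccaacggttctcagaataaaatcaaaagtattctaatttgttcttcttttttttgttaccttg
SPX3, chr2:18606160-18606409, plus strand: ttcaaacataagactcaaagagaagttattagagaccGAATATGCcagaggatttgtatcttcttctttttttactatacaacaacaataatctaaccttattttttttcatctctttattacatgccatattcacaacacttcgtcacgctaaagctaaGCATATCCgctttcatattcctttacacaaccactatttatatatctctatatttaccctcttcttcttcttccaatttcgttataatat
MGD3, chr2:4742912-4743161, plus strand: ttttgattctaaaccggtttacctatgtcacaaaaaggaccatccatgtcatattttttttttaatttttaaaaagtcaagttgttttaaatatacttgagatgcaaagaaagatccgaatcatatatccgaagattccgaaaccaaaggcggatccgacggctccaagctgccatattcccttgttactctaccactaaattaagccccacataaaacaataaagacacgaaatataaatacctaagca

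PAP14 held the element at 141 and 104 bases before its start, PECP1 at 757 and 362, SPX1 at 735, IPS1 at 582 and 548, and SQD2 at 340, counted from the first base of the element. PS2 held another copy at 602 bases, while PAP17 and PHT1;4, like MGD3, held none in 1000 bases. The sites are shown with 11 bases on either side, to allow the copies to be compared.
PAP14, chr2:19266579-19266608, minus strand: acaaatcaaaaGCATATGCcaaaatggtta
PAP14, chr2:19266542-19266571, minus strand: ataaaattgtaGAATATACcattagaataa
PECP1, chr1:6092766-6092795, minus strand: cttaacccctaGAATATTCtttctgcttac
PECP1, chr1:6092371-6092400, minus strand: ataaataggtgGAATATTCtttttttttat
SPX1, chr5:6801536-6801565, plus strand: tttcctatcaaGAATATTCcatggaatcca
IPS1, chr3:3050396-3050425, plus strand: ttttggtaacgGCATATTCcatcggatgat
IPS1, chr3:3050430-3050459, plus strand: aattctcaaaaGCATATTCacgtaagactc
SQD2, chr5:90439-90468, minus strand: ttatgtgaagcGAATATTCattggaataga
The sites of PECP1, SPX1 and SQD2 and the nearer site of PS2 have the same 8 letters, and the SPX3 and PAP14 sites vary at the free positions. A match to these letters is a description of the sequence and does not show that a protein binds there.

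Of the 9 genes that passed the filter on low counts, the largest fold change from WT was that of a phosphatase gene in each mutant, PS2 in pwr and PAP14 in hda9. PS2, which encodes a pyrophosphatase (chromosome 1, 27464528 to 27466348), had 4.55, 2.79 and 1.71 CPM in pwr, 1.26, 1.88 and 1.31 CPM in hda9, and 9.46, 27.4 and 14.7 CPM in WT. Every mutant library lay below every WT library, and WT replicate 2 was far above the other two of its group. The mean was 3.02 ± 1.44 CPM in pwr, 1.48 ± 0.342 CPM in hda9 and 17.2 ± 9.21 CPM in WT (SD, n = 3 each). The fitted level was 5.78-fold lower in pwr than in WT, a log2 fold change of -2.53 (95% interval -3.40 to -1.67), and 11.5-fold lower in hda9 than in WT, -3.52 (-4.51 to -2.53).

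PECP1, a phosphatase of phosphoethanolamine and phosphocholine (chromosome 1, 6090405 to 6092027), had 2.95, 3.12 and 1.02 CPM in pwr, 0.526, 0.883 and 2.79 CPM in hda9, and 3.22, 11.4 and 5.54 CPM in WT. The groups did not overlap, but 2 pwr libraries and 1 hda9 library came close to WT replicate 1. The log2 fold change was -1.52 (-2.68 to -0.36) in pwr and -2.42 (-3.74 to -1.11) in hda9. Without WT replicate 2, which held 132 of the 213 WT reads, these became -0.87 in pwr and -1.78 in hda9. Of the 30 PECP1 reads of hda9, 17 were in replicate 3, without which the value in hda9 was -3.25.

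PAP14, a purple acid phosphatase gene (chromosome 2, 19264573 to 19266456), was read 23, 28 and 2 times in pwr, 1, 0 and 9 times in hda9, and 20, 89 and 61 times in WT. In CPM these were 2.83, 3.01 and 0.227 in pwr, 0.105, 0 and 1.47 in hda9, and 1.89, 7.69 and 7.20 in WT. The pwr libraries overlapped WT, since replicates 1 and 2 of pwr were above WT replicate 1, whereas all hda9 libraries were below all WT libraries. The log2 fold change was -1.46 in pwr (-2.98 to 0.06) and -3.70 in hda9 (-5.76 to -1.65). For hda9 the summed counts, 10 against 170 reads in WT, gave -3.78 with an interval of -4.86 to -2.86 for counting error only. Without replicate 3, hda9 held 1 read, and without pwr replicate 3 the log2 fold change in pwr was -0.93.

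PAP17, another purple acid phosphatase gene (chromosome 3, 6089381 to 6091231), was the most abundant of the 4 phosphatase genes per kilobase of exon. Its levels were 29.3, 35.1 and 23.3 CPM in pwr, 22.4, 21.6 and 20.3 CPM in hda9, and 38.6, 44.1 and 36.8 CPM in WT. The 3 groups did not overlap at any point, with pwr between hda9 and WT. The level was 1.37-fold lower in pwr than in WT, a log2 fold change of -0.45 (-0.71 to -0.19), and 1.86-fold lower in hda9, -0.89 (-1.17 to -0.62). PAP17 shares 7.36% of its exon bases with a gene on the other strand, AT3G17800, and what share of its counts could come from that gene is not known.

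**Figure D1:**
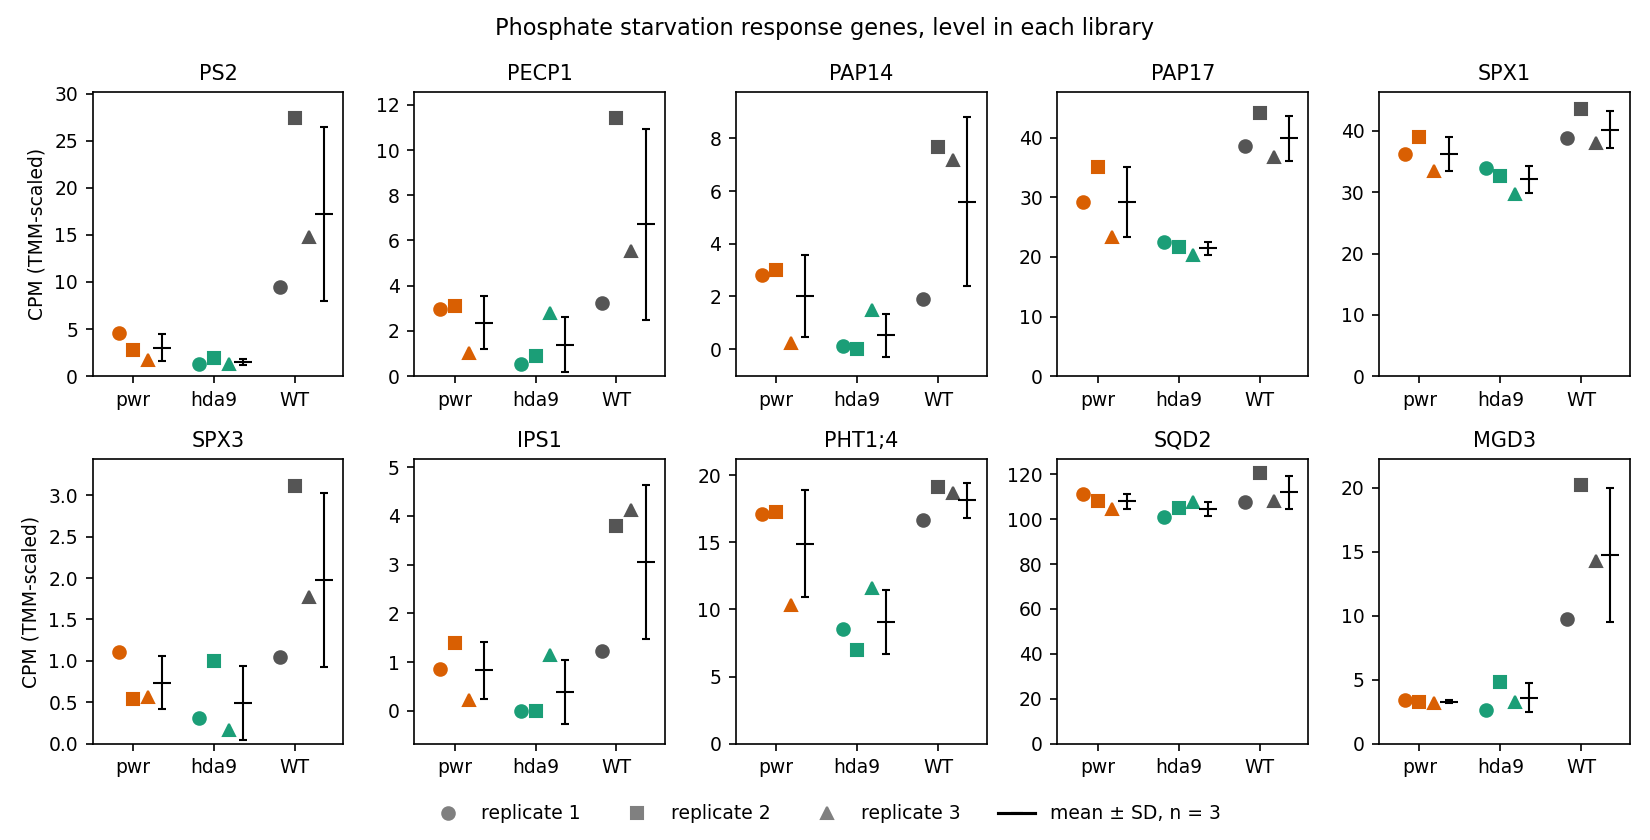
Level of each of the 10 genes in CPM (TMM-scaled, vertical axis, 1 panel per gene with its own scale) in the libraries of pwr, hda9 and WT. Circles, squares and triangles are replicates 1, 2 and 3, and the bar is the mean ± SD of 3 libraries. WT replicate 2 is the highest WT library in 9 panels, and SQD2 and SPX1 vary little between groups while PS2 ranges from 1.26 CPM in hda9 to 27.4 CPM in WT.

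The sensors and signals of the pathway were less uniform. SPX1 (chromosome 5, 6802282 to 6803655), whose protein inhibits PHR1, had 36.3, 39.0 and 33.4 CPM in pwr, 34.0, 32.7 and 29.7 CPM in hda9, and 38.8, 43.6 and 38.1 CPM in WT. The hda9 libraries were below all WT libraries, and pwr overlapped WT. The log2 fold change was small, -0.15 in pwr (-0.32 to 0.02) and -0.32 in hda9 (-0.49 to -0.15). SPX3 (chromosome 2, 18606410 to 18607853), which encodes another SPX protein, was rare, with 9, 5 and 5 reads in pwr, 3, 9 and 1 in hda9, and 11, 36 and 15 in WT. It was the member that did not pass the filter on low counts, so it was not in the main fit. Its summed reads, 19 in pwr, 13 in hda9 and 62 in WT, gave a log2 ratio to WT of -1.48 in pwr (-2.31 to -0.72) and -1.94 in hda9 (-2.93 to -1.06), intervals that cover counting error only.

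IPS1 (chromosome 3, 3050989 to 3051530, 1 exon) had 7, 13 and 2 reads in pwr, 0, 0 and 7 in hda9, and 13, 44 and 35 in WT. In CPM the libraries held 0.861, 1.40 and 0.227 in pwr, 0, 0 and 1.15 in hda9, and 1.23, 3.80 and 4.13 in WT. Every IPS1 read of hda9 was thus in replicate 3, the library that stood apart, which held 25.8% of the hda9 reads and also 9 of the 10 PAP14 reads. The fitted log2 fold change was -1.84 in pwr (-3.40 to -0.28) and -3.32 in hda9 (-5.27 to -1.36). Over summed reads, 7 in hda9 against 92 in WT, it was -3.40 with a counting interval of -4.76 to -2.30. In the other 2 hda9 libraries 3 counts correspond to 0.316 and 0.331 CPM, so a level up to about these values would go undetected there.

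PHT1;4 (chromosome 2, 16257157 to 16260253), which encodes a phosphate transporter of the plasma membrane, had 17.1, 17.3 and 10.4 CPM in pwr, 8.52, 6.96 and 11.6 CPM in hda9, and 16.7, 19.1 and 18.6 CPM in WT. Pwr replicates 1 and 2 lay within the WT range and replicate 3 well below it, while all hda9 libraries were below WT. The level was 2.05-fold lower in hda9, a log2 fold change of -1.04 (-1.48 to -0.59), and had a log2 fold change of -0.28 in pwr (-0.70 to 0.13), which was -0.075 without pwr replicate 3.

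The lipid genes held both the steadiest and a strongly lower member. MGD3 (chromosome 2, 4743162 to 4746813), which encodes a synthase of the galactolipid MGDG, had 3.44, 3.22 and 3.18 CPM in pwr, 2.63, 4.86 and 3.28 CPM in hda9, and 9.75, 20.2 and 14.3 CPM in WT. All mutant libraries were below all WT libraries, and the mutants overlapped each other. The level was 4.50-fold lower in pwr than in WT, a log2 fold change of -2.17 (-2.78 to -1.56), and 4.10-fold lower in hda9, -2.03 (-2.65 to -1.42). SQD2 (chromosome 5, 86543 to 90117), which encodes the last enzyme of sulfolipid synthesis, had 111.2, 108 and 104.5 CPM in pwr, 101.1, 104.9 and 107.5 CPM in hda9, and 107.6, 120.5 and 108 CPM in WT. Its log2 fold change was -0.06 in pwr (-0.18 to 0.07) and -0.11 in hda9 (-0.23 to 0.02), intervals that leave out a change as large as that of MGD3.

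With a threshold of 0.05 on the adjusted p of edgeR's quasi-likelihood test, 4 of the 9 fitted genes were called lower in pwr (PS2, PECP1, PAP17 and MGD3), where 15.3% of all 20171 tested genes were called lower. In hda9, 8 of 9, all but SQD2, were called lower, where 16.6% of all genes were. The genes were chosen with these differences in view, so the shares are not a result about them. The PECP1 call in pwr ended with loess offsets and when any of 6 libraries was left out (pwr replicates 1, 2 and 3, hda9 replicate 2, WT replicates 2 and 3), and the PAP17 call in pwr ended without WT replicate 2. IPS1 was called in pwr without hda9 replicate 3, without WT replicate 1 and in the 6 pwr and WT libraries alone. In hda9, DESeq2 called 7 of 9, without PAP14, while upper-quartile factors and loess offsets called 9 of 9, SQD2 included, and loess offsets called SQD2 in pwr. The hda9 call of IPS1 ended without hda9 replicate 2 and that of SPX1 without WT replicate 2. Both comparisons use the same WT libraries. Without WT replicate 2 the counts were 2 of 9 in pwr and 7 of 9 in hda9; over leaving out any other library they were 3 to 6 of 10 in pwr, with 6 of 10 without hda9 replicate 3 or without WT replicate 1, and 8 to 9 of 10 in hda9. All 3 libraries lay below all WT libraries for 4 of the 10 genes in pwr (24.7% of all tested genes) and for 10 of 10 in hda9 (22.9%). The median log2 fold change of the 9 fitted genes was -1.46 in pwr and -2.03 in hda9, and that of all tested genes was -0.006 and 0.002.

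**Figure D2:**
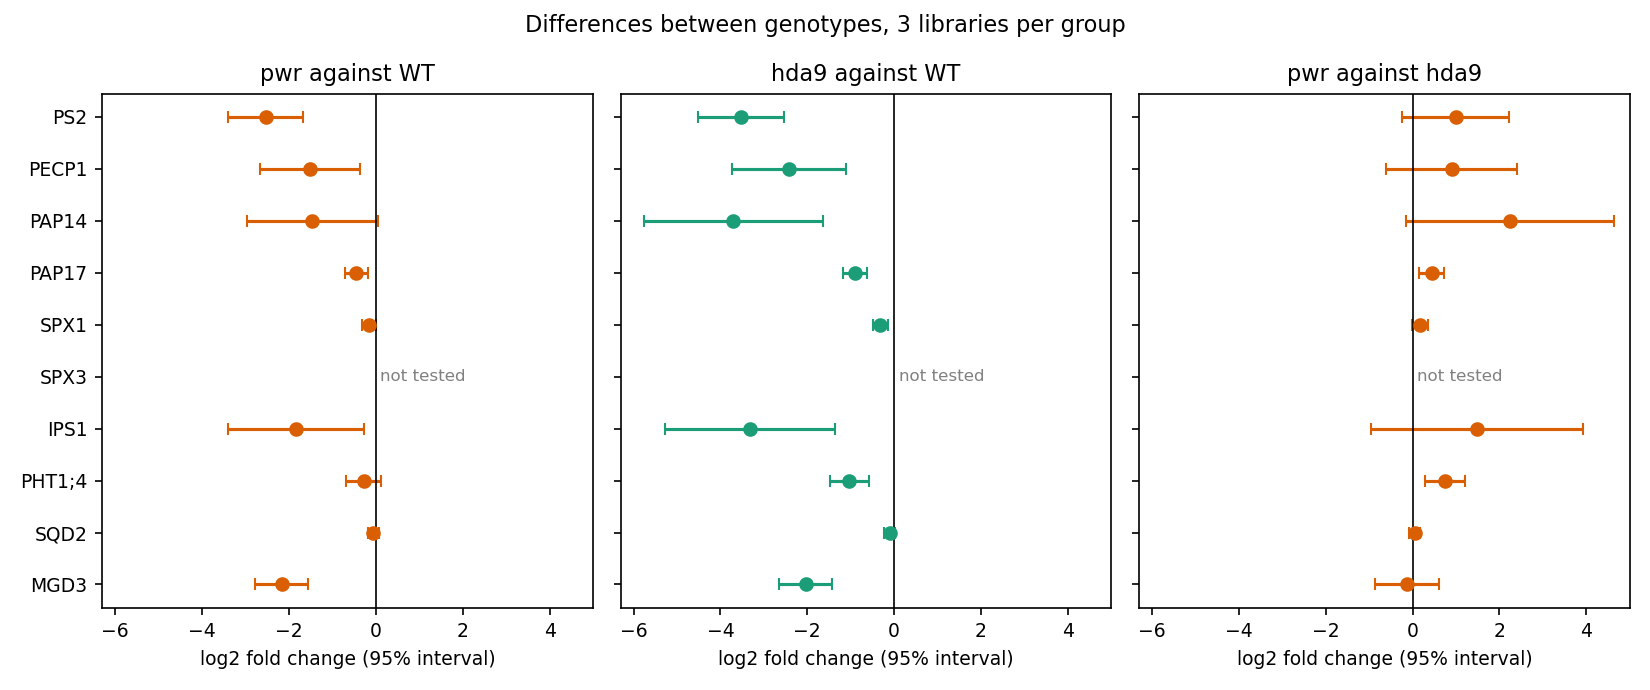
Log2 fold change (horizontal axis) of the 9 fitted genes in pwr against WT, hda9 against WT and pwr against hda9, from the edgeR fit with 3 libraries per group; bars are 95% intervals and SPX3 was not tested. Values against WT run from -2.53 to -0.06 in pwr and from -3.70 to -0.11 in hda9, and of the 9 intervals between the mutants those of PAP17 and PHT1;4 do not reach 0.

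Scaled per kilobase of exon, which allows levels of different genes to be compared, the order in WT was SQD2 with 49.2 ± 3.22 CPM per kb, SPX1 with 33.3 ± 2.49, PAP17 with 24.0 ± 2.31, PS2 with 13.2 ± 7.04, PHT1;4 with 9.07 ± 0.648, MGD3 with 7.65 ± 2.73, IPS1 with 5.63 ± 2.93, PECP1 with 4.89 ± 3.07, PAP14 with 3.37 ± 1.94 and SPX3 with 2.15 ± 1.15 (SD, n = 3). Neighbours from PS2 down to SPX3 lay within the SDs of the WT libraries, and the 3 most abundant genes stood above them. The same 3 genes led in both mutants, with 47.4, 30.0 and 17.6 CPM per kb in pwr and 45.9, 26.6 and 12.9 in hda9. PS2 was at 2.31 CPM per kb in pwr and at 1.13 in hda9, below PHT1;4 with 7.46 in pwr and 4.52 in hda9.

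In WT and in pwr, the replicates differed together across these genes. In WT, replicate 2 was the highest library for 9 of the 10 genes and replicate 1 the lowest for 8, where over all tested genes replicate 2 was highest in 30.4% and replicate 1 lowest in 31.7%. In pwr, replicate 3 was lowest for 9 of the 10 genes (35.4% of all genes). In hda9, replicate 3 was highest for 5 (40.1% of all genes) and lowest for 3 (38.8%), near the shares over all genes. Averaged over the 9 fitted genes, log2 CPM lay 0.13, 0.17 and -0.76 from each gene's own mean in the pwr libraries, -1.12, -1.01 and -0.28 in hda9, and 0.45, 1.38 and 1.05 in WT. WT libraries were the 3 highest by this measure, and hda9 replicate 3 lay between pwr replicates 3 and 1. The labels give nothing that distinguishes the replicates of a group.

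**Figure D3:**
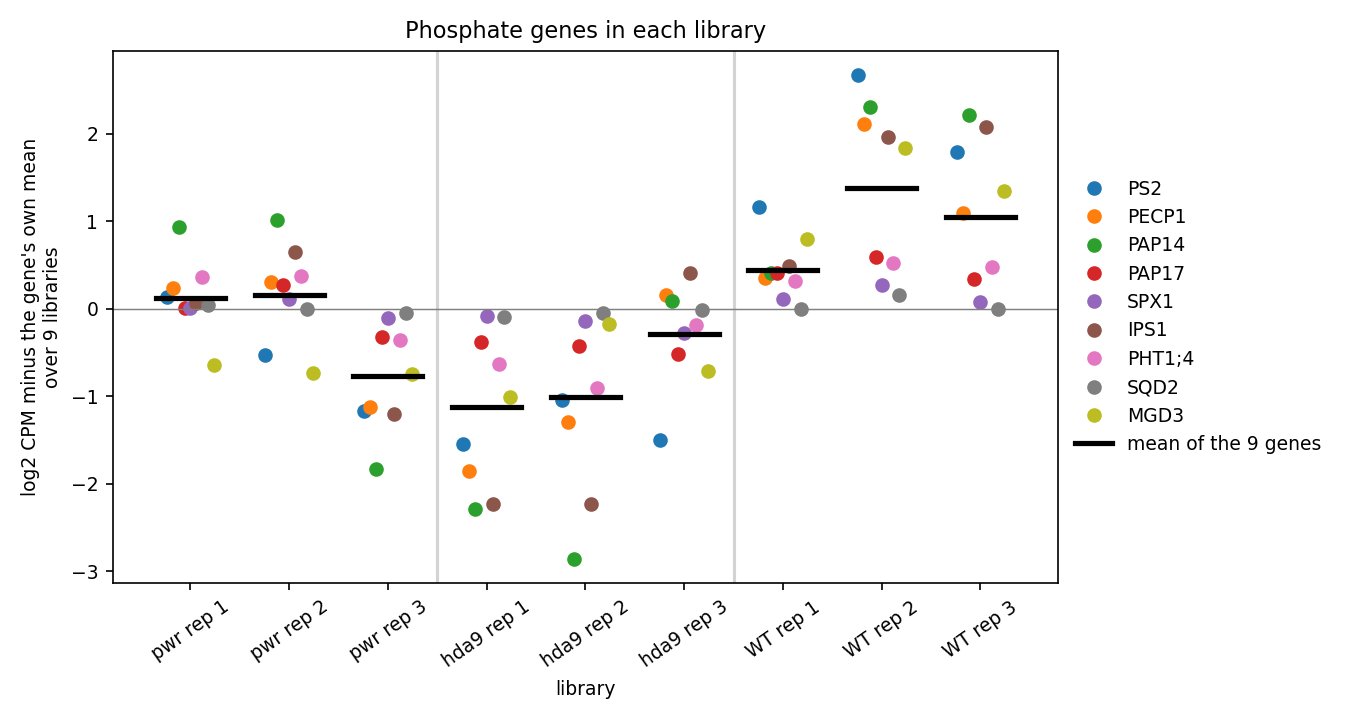
Log2 CPM of the 9 fitted genes in each library (horizontal axis), each minus the gene's own mean over 9 libraries (vertical axis). Points are genes and black bars the mean of the 9 genes, which is highest in WT replicate 2 at 1.38 and lowest in hda9 replicate 1 at -1.12.

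Between the mutants, 0 of the 9 fitted genes were called by edgeR after adjustment, where 0.421% of all genes were, and DESeq2 called 0 as well. At an unadjusted p under 0.05, PAP17 and PHT1;4 differed, 2 of 9 where 13.5% of all genes did. The log2 difference, pwr minus hda9, was 0.44 for PAP17 (0.15 to 0.73) and 0.75 for PHT1;4 (0.29 to 1.21). It was 0.99 for PS2 (-0.24 to 2.22), 0.91 for PECP1 (-0.60 to 2.41), 2.24 for PAP14 (-0.15 to 4.63) and 1.48 for IPS1 (-0.96 to 3.92), intervals wide enough to hold a large difference or none. For MGD3 it was -0.14 (-0.87 to 0.60), for SPX1 0.17 (-0.01 to 0.35) and for SQD2 0.05 (-0.08 to 0.18). PAP17 was the gene among the 10 whose pwr libraries all lay above all hda9 libraries, as for 9.16% of all tested genes. The sign of the MGD3 difference turned without hda9 replicate 2 (0.18), and without pwr replicate 3 PAP17 and PHT1;4 were called after adjustment. The hda9 values took part in the choice of the genes.

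Markers of root cells were checked beside these levels, because several of the genes are known to be active in roots. The 15 root markers summed to 198 to 212 CPM in pwr, 204.5 to 232.8 CPM in hda9 and 196 to 206 CPM in WT, nearly all of it from PYK10, a root endoplasmic reticulum glucosidase. The other 14 markers summed to 4.66 to 5.54 CPM in pwr, 5.57 to 7.68 CPM in hda9 and 7.20 to 10.1 CPM in WT. By this sum all pwr libraries lay below all WT libraries, and hda9 overlapped WT. The order of pwr and WT did not hold without NRT2.1. That gene made up 2.36 of the 7.20 CPM in WT replicate 3, against 0.492 of the 5.54 CPM in pwr replicate 1. None was at 0 in all libraries, but the root hair genes EXPA7, RSL4 and RHD6 had 11, 5 and 6 reads over the 9 libraries, and 4 of the 15 passed the filter. Of those 4, NRT2.1, which encodes a nitrate transporter of roots, fell in hda9 by 2.23 on the log2 scale (SE 0.57, adjusted p = 0.0111, edgeR), and none was called in pwr. The others of those 4 were not called in hda9 either, and they went both ways. WOX5 averaged 1.25 CPM in pwr, 1.37 CPM in hda9 and 2.03 CPM in WT. CASP1 (2.08, 2.25 and 1.89 CPM in the same order) and PYK10 (199.8, 207.7 and 192.2 CPM) were higher in both mutants. Among all 15 root markers, no others had a higher mean in pwr than in WT. In hda9 PLT1 did as well (0.210 CPM against 0.181 CPM in WT), and the rest had lower means than WT. The 7 leaf markers summed to 2829 to 3004 CPM in pwr, 2715 to 3248 CPM in hda9 and 2606 to 2709 CPM in WT. By this sum all libraries of both mutants lay above all WT libraries, in hda9 by a narrow margin. The part of cell makeup in the levels of the phosphate genes was not tested.

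Genes outside the pathway with the most similar profile over the 9 libraries were sought among 19071 tested genes with a mean log2 CPM of at least 1, by the mean absolute difference from the mean profile of the 9 genes. The nearest was AT5G39020 with a mean difference of 0.272 log2 units, followed by CYP71B36 (0.285), the gibberellin synthesis gene GA3OX2 (0.290), AT1G23140 (0.297) and the cold response regulator CBF1 (0.298). CYP96A4, GAD4, the auxin synthesis gene YUC4, JAL23 and the anthocyanin regulator AT1G56650 completed the 10 nearest, at 0.298 to 0.316. GA3OX2, for example, had 2.58 ± 0.866 CPM in pwr, 1.30 ± 0.247 CPM in hda9 and 5.55 ± 0.196 CPM in WT. The phosphate genes themselves lay 0.324 (PECP1) to 0.916 (PAP14) from their own mean profile.

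The rest of the pathway, 92 further genes of which 72 passed the filter, did not differ in 1 direction. In pwr 17 were called higher and 10 lower, 23.6% and 13.9% of the 72, where 16.0% and 15.3% of all genes were called higher and lower. In hda9 16 were called higher and 15 lower, 22.2% and 20.8%, where 17.6% and 16.6% of all genes were. With upper-quartile factors 12 were called higher and 13 lower in pwr, and with DESeq2 16 and 5. The median log2 fold change of the 72 was 0.03 in pwr and 0.00 in hda9. This list, too, was written with earlier results of these libraries known. All adjusted p-values that follow are from edgeR, over all 20171 genes.

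**Figure D4:**
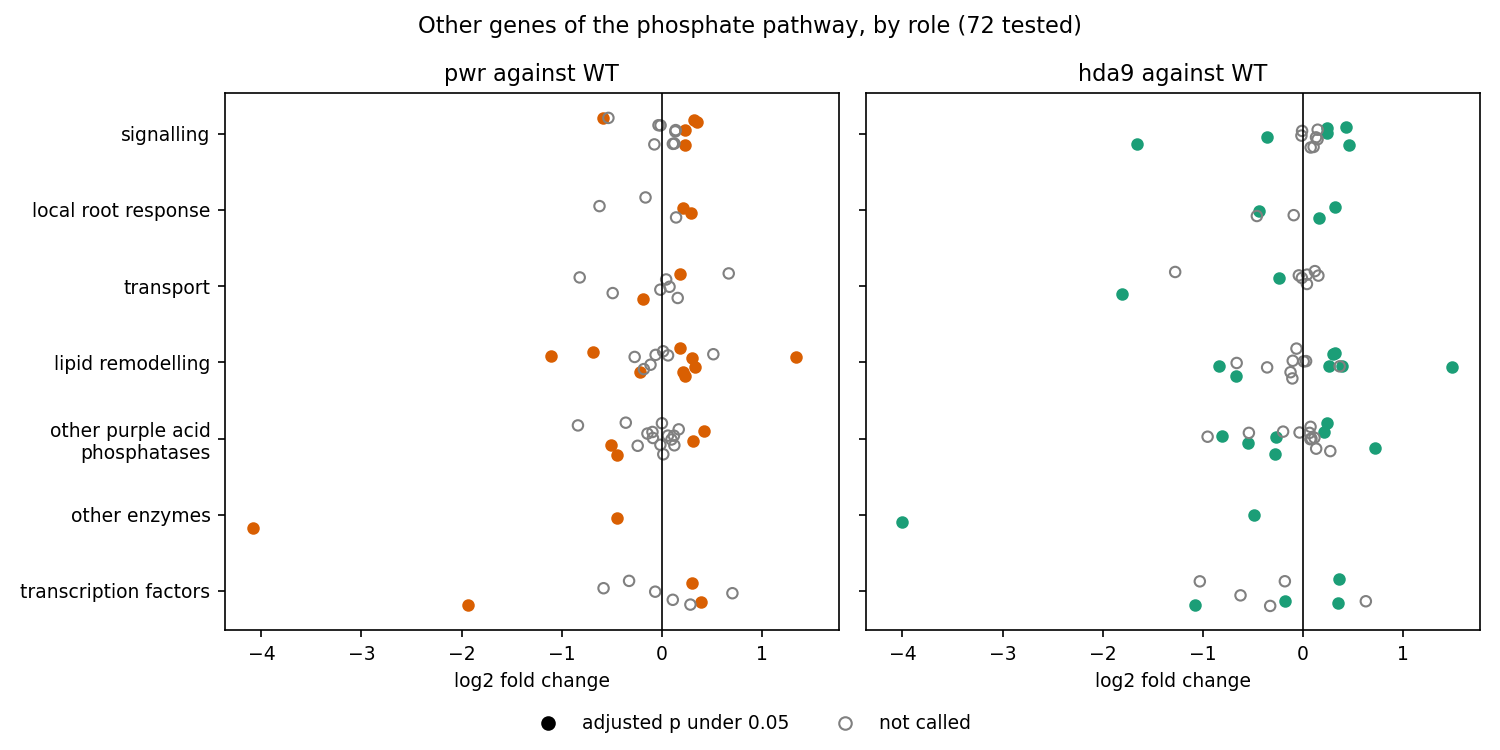
Log2 fold change (horizontal axis) of 72 other phosphate pathway genes in pwr against WT and hda9 against WT, in rows by role; filled points have an adjusted p under 0.05 and open points do not, and the vertical scatter within a row carries no value. Both panels have called genes on either side of 0, with GDPD2 farthest to the right and RNS1 farthest to the left.

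Of 13 tested signalling genes, 4 were called higher and 1 lower in pwr, and 4 higher and 2 lower in hda9. These were 30.8% and 7.69% in pwr, where 16.0% and 15.3% of all genes were called higher and lower. In hda9 they were 30.8% and 15.4%, where 17.6% and 16.6% of all genes were. PHR1, the master transcription factor, had 90.3 ± 1.63 CPM in pwr, 93.0 ± 5.84 CPM in hda9 and 83.7 ± 2.66 CPM in WT, with log2 fold changes of 0.11 in pwr (SE 0.05, adjusted p = 0.141) and 0.15 in hda9 (SE 0.05, adjusted p = 0.0546). PHR1 was called in hda9 with the replicate number as a block (adjusted p = 0.0416) and without hda9 replicate 1 (0.0492). Its relative PHL1 had -0.07 in pwr and -0.01 in hda9, and PHO2 had 0.13 in pwr and 0.08 in hda9, none of them called. SPX4, which encodes a further SPX protein, rose to 29.0 ± 1.41 CPM in pwr and 31.2 ± 2.73 CPM in hda9, against 23.2 ± 1.44 CPM in WT, log2 fold changes of 0.32 (SE 0.08, adjusted p = 0.0117) and 0.43 (SE 0.08, adjusted p = 0.00196). The pwr call of SPX4 ended with upper-quartile scaling and without pwr replicate 2 or WT replicate 1 (0.0542 to 0.0612). SPX2 had 0.13 in both mutants, which was not called except with loess offsets in pwr (0.0379). VIH1, which makes the inositol pyrophosphates that SPX proteins sense, fell by 0.58 in pwr (SE 0.09, adjusted p = 0.00103) and by 0.36 in hda9 (SE 0.09, adjusted p = 0.0124). The hda9 call of VIH1 ended without hda9 replicate 2, WT replicate 1 or WT replicate 2 (0.0504 to 0.0549). Its more abundant relative VIH2 went the other way, with mean levels of 265.1 CPM in pwr, 268.3 CPM in hda9 and 225.8 CPM in WT. It was called higher in pwr (log2 fold change 0.23, SE 0.07, adjusted p = 0.0246) and in hda9 (0.25, SE 0.07, adjusted p = 0.017). All libraries of both mutants lay above all WT libraries for VIH2, which was not among the genes followed under the alternatives.

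At4, the closest relative of IPS1 (AT5G03545, a noncoding RNA with the same action on miR399), had 84, 116 and 36 reads in pwr, 33, 14 and 51 in hda9, and 116, 146 and 132 in WT. Its level, 8.96 ± 4.35 CPM in pwr, 4.46 ± 3.51 CPM in hda9 and 13.1 ± 2.33 CPM in WT, fell in hda9 by 1.65 on the log2 scale (SE 0.46, adjusted p = 0.0161) and had a log2 fold change of -0.53 in pwr (SE 0.40, adjusted p = 0.332). As for IPS1, hda9 replicate 3 was the highest hda9 library, with 51 of the 98 reads. The hda9 call ended with DESeq2 (0.0599) and without hda9 replicate 2 (0.0604).

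Of the 9 tested transport genes, PHO1, which loads phosphate into the xylem, was called higher in pwr (log2 fold change 0.18, SE 0.06, adjusted p = 0.0299), and PHF1, needed for PHT1 proteins to leave the endoplasmic reticulum, lower in both mutants. PHF1 had 28.6 ± 1.19 CPM in pwr, 27.6 ± 1.32 CPM in hda9 and 32.6 ± 0.936 CPM in WT, falls of 0.19 in pwr (SE 0.06, adjusted p = 0.0399) and 0.24 in hda9 (SE 0.06, adjusted p = 0.0153). These are small changes, and DESeq2 called neither gene in pwr (0.0814 for PHO1, 0.202 for PHF1) nor PHF1 in hda9 (0.103). In pwr the call of each gene also ended with loess offsets and when any of 5 libraries was left out, that of PHO1 with upper-quartile factors (0.151), and that of PHF1 with no filter (0.0592) and with the replicate block (0.0502). In hda9 the PHF1 call ended without WT replicate 1 or 2 (0.0567 and 0.0573). The root transporter PHT1;1 had 16, 34 and 13 reads in pwr, 29, 3 and 11 in hda9, and 35, 60 and 35 in WT, log2 fold changes of -0.82 (SE 0.47, adjusted p = 0.200) and -1.28 (SE 0.50, adjusted p = 0.0668). Without hda9 replicate 1, PHT1;1 had -2.14 in hda9 and was called (0.0142). With a block in the 6 hda9 and WT libraries it was called in hda9 (0.0166), as were PHO1 (0.0497) and PHR1 (0.0178). PHT1;1 has close copies in PHT1;2, with 1 read in pwr and 0 in hda9 and WT, and PHT1;3, with 0 reads. How reads that match more than 1 of these genes were counted is not known. G3Pp1, of the glycerol-3-phosphate transporter family, had 15.6 ± 5.22 CPM in pwr, 6.27 ± 0.537 CPM in hda9 and 21.8 ± 5.11 CPM in WT. It fell in hda9 by 1.80 (SE 0.25, adjusted p = 2.9e-04), with a log2 fold change of -0.49 in pwr (SE 0.22, adjusted p = 0.110). The difference between the mutants was 1.31 (SE 0.26, adjusted p = 0.0557), which was called with DESeq2 (7.2e-04), the replicate block (0.0438), no filter (0.0275) and the 6 libraries alone (0.0414), without pwr replicate 3 (0.00775) and without WT replicate 1 (0.0494).

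Lipid remodelling genes went both ways, 6 higher and 3 lower of 16 in pwr and 5 higher and 2 lower in hda9. These were 37.5% and 18.8% in pwr, where 16.0% and 15.3% of all genes were called higher and lower. In hda9 they were 31.2% and 12.5%, where 17.6% and 16.6% of all genes were. GDPD2, a glycerophosphodiester phosphodiesterase, rose most, to 38.3 ± 7.81 CPM in pwr and 42.6 ± 1.96 CPM in hda9, against 15.5 ± 5.96 CPM in WT, log2 fold changes of 1.34 (SE 0.21, adjusted p = 8.8e-04) and 1.49 (SE 0.21, adjusted p = 3.1e-04). Its relative GDPD5 fell by 0.68 in pwr (SE 0.09, adjusted p = 3.2e-04) and by 0.67 in hda9 (SE 0.09, adjusted p = 2.8e-04). The phospholipase D gene PLDZ1 rose by 0.30 in each mutant. PLDZ2, the phospholipase D best known from phosphate starvation, had 143, 142 and 134 reads in pwr, 100, 89 and 61 in hda9, and 120, 275 and 162 in WT. It fell in hda9 by 0.84 (SE 0.22, adjusted p = 0.0118), was not called once WT replicate 2 was left out (0.054), and had -0.18 in pwr (SE 0.20, adjusted p = 0.526). The pwr value was -0.43 and called without WT replicate 1 (0.0334), and its sign turned without WT replicate 2 (0.085). Between the mutants PLDZ2 had 0.66 (SE 0.22, adjusted p = 0.223), called in the 6 libraries alone (0.0436) and without WT replicate 1 (0.0494). UGP3, which supplies the sugar nucleotide for sulfolipids, rose by 0.33 in pwr and 0.32 in hda9. PAH2, a phosphatidate phosphatase, rose by 0.39 in hda9 (SE 0.07, adjusted p = 0.00112) and by 0.21 in pwr (SE 0.07, adjusted p = 0.031), where loess offsets (0.104, adjusted p = 0.311), upper-quartile factors (0.141, adjusted p = 0.136) and leaving out any of 4 libraries ended the call. SQD1, the step before SQD2, had 0.06 in pwr and 0.03 in hda9, not called.

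MGD2, the closest relative of MGD3, had 20.6 ± 2.54 CPM in pwr, 23.1 ± 0.854 CPM in hda9 and 24.7 ± 4.76 CPM in WT, with log2 fold changes of -0.27 (SE 0.13, adjusted p = 0.134) and -0.10 (SE 0.13, adjusted p = 0.564). Of the genes for the next galactolipid step, DGD1 rose by 0.18 in pwr (SE 0.05, adjusted p = 0.0126) and DGD2 fell by 0.22 (SE 0.06, adjusted p = 0.0156), with 0.01 and -0.12 in hda9, not called except DGD2 with upper-quartile factors (0.0261). The DGD1 call ended with loess offsets (0.252) and upper-quartile scaling (0.0788) and without pwr replicate 2 or WT replicate 1. The DGD2 call ended with DESeq2 (0.0887) and without pwr replicate 3 or WT replicate 1. GDPD3 had 5, 8 and 7 reads in pwr, 12, 10 and 4 in hda9, and 18, 21 and 12 in WT. It was called lower in pwr (log2 fold change -1.11, SE 0.34, adjusted p = 0.0266), but not with DESeq2 (0.132) or loess offsets (-0.75, adjusted p = 0.103) and not without any of 5 libraries left out in turn.

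Of the other purple acid phosphatase genes, 18 were tested, and 2 were called higher and 2 lower in pwr, 3 higher and 4 lower in hda9. These were 11.1% each way in pwr, where 16.0% and 15.3% of all genes were called higher and lower. In hda9 they were 16.7% and 22.2%, where 17.6% and 16.6% of all genes were. PAP4 had 74.0 ± 3.26 CPM in pwr, 91.1 ± 3.74 CPM in hda9 and 55.2 ± 1.58 CPM in WT, rises of 0.43 (SE 0.05, adjusted p = 2.2e-04) and 0.72 (SE 0.05, adjusted p = 3.7e-06). PAP2 rose by 0.31 in pwr and 0.24 in hda9 (SE 0.05 each, adjusted p = 9.1e-04 and 0.00318). PAP15, a phosphatase that acts on phytate, had 11.5 ± 1.67 CPM in pwr, 8.79 ± 0.735 CPM in hda9 and 15.4 ± 2.23 CPM in WT. It fell in hda9 by 0.81 (SE 0.15, adjusted p = 0.00144) and in pwr by 0.44 (SE 0.14, adjusted p = 0.0313), where DESeq2 (0.0708), loess offsets (-0.24, adjusted p = 0.187) and 4 of the libraries left out in turn ended the call. The secreted phosphatases PAP10, PAP12 and PAP26 had log2 fold changes of -0.14, -0.09 and 0.12 in pwr, not called, and of -0.28, -0.03 and 0.13 in hda9, where PAP10 was called (SE 0.05, adjusted p = 0.00253). In pwr PAP10 was called under 5 alternatives, among them upper-quartile factors (-0.22, adjusted p = 0.00607) and loess offsets (-0.20, adjusted p = 0.0108), PAP12 with upper-quartile factors (0.028), and PAP26 in the 6 libraries alone (0.023) and without hda9 replicate 3 (0.0334). In hda9 PAP26 was called without hda9 replicate 1 (0.0185). PAP10 shares 9.13% of its exon bases with a gene on the other strand.

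RNS1, a secreted ribonuclease, had the largest fold change of the list, with 0, 1 and 1 reads in pwr, 1, 0 and 1 in hda9, and 15, 16 and 15 in WT. The WT libraries were close to each other, and the mutants were at the limit of detection. The ratio of summed reads, 2 in each mutant against 46 in WT, was -4.30 on the log2 scale in pwr (-7.39 to -2.37) and -4.21 in hda9 (-7.30 to -2.28), intervals for counting error only, with edgeR's adjusted p = 8.0e-04 and 6.8e-04. PPCK1, a kinase of phosphoenolpyruvate carboxylase, fell by 0.45 in pwr (SE 0.05, adjusted p = 1.7e-04) and by 0.49 in hda9 (SE 0.06, adjusted p = 7.0e-05), and 22% of its exon bases are shared with a gene on the other strand.

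Among the transcription factors linked to phosphate, HHO2, of the GARP family, rose by 0.39 in pwr (SE 0.07, adjusted p = 0.00174) and 0.36 in hda9 (SE 0.07, adjusted p = 0.0023). STOP1, a zinc finger factor of the local root response, rose by 0.29 in pwr (SE 0.06, adjusted p = 0.00398) and by 0.32 in hda9 (SE 0.06, adjusted p = 0.00189). WRKY75 had 1, 9 and 5 reads in pwr, 9, 5 and 12 in hda9, and 28, 17 and 22 in WT. It fell in pwr by 1.93 (SE 0.54, adjusted p = 0.0189) and had -1.03 in hda9 (SE 0.49, adjusted p = 0.126), which was called with the block in the 6 hda9 and WT libraries (0.0267) and without hda9 replicate 3 (0.0495). The pwr call ended with loess offsets (0.0546) and without pwr replicate 1, pwr replicate 3 or WT replicate 1. ZAT6, a zinc finger factor, had 25.0 ± 4.66 CPM in pwr, 10.0 ± 3.47 CPM in hda9 and 20.7 ± 6.14 CPM in WT. It fell in hda9 by 1.08 (SE 0.25, adjusted p = 0.00639) and had 0.29 in pwr (SE 0.22, adjusted p = 0.334). ZAT6 and PAP4 were the list's calls between the mutants, ZAT6 with 1.37 in pwr over hda9 (SE 0.25, adjusted p = 0.042) and PAP4 with -0.30 (SE 0.05, adjusted p = 0.0411). All genes gave 85 calls here (0.421%). Leaving out 1 library ended the ZAT6 call for 5 of the 9 libraries and the PAP4 call for 7 of 9.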

How the data were processed

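PolyA RNA of 9 whole-seedling samples was sequenced with stranded (dUTP) libraries, per the labels' protocols. The authors deposited raw counts, whole numbers of reads for every gene and library, without normalization. The submitters' processing notes name HISAT2 and TAIR10. The counting tool, its strand setting and its handling of multiply mapped reads are not given in the sources used here, so reads of overlapping or near-identical genes are uncertain. Columns were matched to samples by their names. Gene names, positions and sequences came from RefSeq's TAIR10.1 annotation, which matched 28932 of the 29420 identifiers.

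Counts were fitted with edgeR 4.0.16 in R 4.3.3: TMM factors, filterByExpr (20171 genes left), genotype as the sole factor in a model of the 9 libraries, and the quasi-likelihood F test. P-values were adjusted by Benjamini-Hochberg over the tested genes, and a gene was called at an adjusted p under 0.05. The SE was derived from the log2 fold change and its F value, and 95% intervals use the t distribution with the fit's degrees of freedom. CPM were scaled by TMM-adjusted library sizes, and log2 CPM took a prior count of 2. Counting intervals and the floor of 3 counts cover counting error only, since PCR copies are not independent molecules. The steps were checked on simulated counts.

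The 10 genes, the pathway and marker lists, the tests and the alternatives were chosen with earlier results of these data known. The text names the 10 genes, HDA9, PWR, 18 fixed pathway genes whatever their p, for each mutant up to 6 further pathway genes called higher and 6 called lower with the smallest adjusted p, and the 10 genes of most similar profile. NRT2.1, the other root markers named and VIH2 were singled out after their values were seen. The alternatives were DESeq2 1.42.0, upper-quartile factors, loess offsets, no filter on low counts, a replicate block, the 6 compared libraries alone, and each library left out. No label ties libraries of the same replicate number. Their deviations from the group means were correlated at 0.359, 0.448 and 0.456 between hda9 and WT, so those libraries were treated as paired in an added fit with a block in these 6 libraries, chosen after the data were seen.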

Additional observations from a re-analysis of the deposited data

How the results depend on the processing

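Of 27 log2 fold changes of the 9 fitted genes, 17 kept their side of the threshold under every alternative run, 16 of them with their direction, and 10 changed side under at least 1. SPX3 is not among these values. With no filter it was fitted, and it was called lower in hda9 but not in pwr. Of 111 values of the other named genes, 82 kept their side, 62 of them with their direction, and 29 changed side. The sign turned under some alternative for 1 value of the 9 fitted genes (MGD3 between the mutants) and 23 of the others, none of them a called value. The causes were not tested.

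In pwr against WT, 6326 genes were called, and 3917 to 7581 with 1 library left out. The 17 higher calls of the pathway list became 11 with loess offsets, 12 with upper-quartile factors and 10 to 19 with 1 library left out, and the 10 lower calls became 5 with DESeq2, 6 with loess offsets and 4 to 11 with 1 library left out. In hda9 against WT, 6897 genes were called, and 4932 to 7137 with 1 library left out, with 14 to 19 in place of 16 higher and 8 to 15 in place of 15 lower calls of the list. In pwr against hda9, 85 genes were called, 184 with DESeq2, 160 with loess offsets, 179 with no filter and 9 to 252 with 1 library left out. There the list's 1 higher call became 2 with DESeq2, with no filter and with the replicate block, 3 in the 6 libraries alone and 0 to 3 with 1 left out, and its 1 lower call 0 in the 6 libraries alone and 0 to 1 with 1 left out. Upper-quartile factors moved the median of all genes to -0.08 in pwr and in hda9.

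With the replicate number as a block, 6251 genes were called in pwr against WT, 6901 in hda9 against WT and 113 in pwr against hda9, and in the 6 hda9 and WT libraries alone 9472. Numbers did not pair pwr libraries with WT (correlations -0.123, -0.014 and -0.128) or with hda9 (-0.221, -0.189 and -0.241). In hda9 against WT the block changed no call of a named gene beside those given with their values. Low counts limit SPX3, IPS1, PAP14, PECP1, RNS1, WRKY75 and GDPD3.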

Other observations

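The replicate pattern of the 10 genes was also looked for in the 72 tested genes of the wider pathway list. WT replicate 2 was the highest WT library for 40.3% of them, and WT replicate 1 the lowest for 44.4%, against 30.4% and 31.7% of all tested genes. Replicate 3 was the lowest pwr library for 38.9% of them and the highest hda9 library for 50.0%, against 35.4% and 40.1% of all tested genes.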
